A study of Mus musculus with 3 samples.

Results

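The genes described here run or restrain cell division: cyclins, cyclin-dependent kinases (CDKs) and their inhibitors, the retinoblastoma (pocket) proteins and E2F factors, the machinery that licenses and copies DNA, and the kinases and checkpoint proteins of mitosis. They were picked by gene name from the microarray's annotation, from symbol families such as Ccn, Cdk, Cdkn, Cdc, Mcm, E2f, Orc, Rfc, Aurk and Bub and from 11 single symbols, leaving out Cdk5 and its regulators, Cdkn1a and the Cdc42 family. A probe set, the group of short probes that stands for a transcript, was kept only if the annotation gave it 1 gene. This gave 118 of the 10833 probe sets with 1 gene symbol, for 88 of 8251 named genes. Of the 11 single symbols, 10 had such a probe set. Tyms, the thymidylate synthase gene, shares its probe sets with a pseudogene and is not described.

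The RNA was from hippocampal CA1 of C57BL/6J mice, young males, and was measured on 3 replicate arrays that form 1 group. Every mouse had gone through contextual fear conditioning: 2 min in a new chamber and then a shock of 1 s at 0.5 mA, with 3 such shocks in all. Mice went back to the home cage 1 min later, and RNA was extracted 6 h after the final shock. No untrained group is among the samples used here, so the values show levels and their spread in trained mice and no effect of training. Whether each array carried material of 1 mouse or of a pool is not stated, so the spread may be partly technical.

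In a dividing cell, D-type cyclins with Cdk4 or Cdk6 phosphorylate the pocket proteins, which releases E2F factors to switch on cyclin E, the MCM helicase genes and the enzymes of DNA synthesis. Cyclins A and B with Cdk1 then drive mitosis. Mature pyramidal neurons have left the cycle, and in the hippocampus division is known mainly from the subgranular zone of the dentate gyrus and from glial precursors, but several of these genes also act outside division, in transcription, DNA repair, protein turnover and the neuronal cytoskeleton.

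A signal above 174.8, the median of all deposited values, is called above threshold. Signals of different probe sets depend on the probes as well as on the transcript, so a signal is compared with the threshold and between arrays, never between genes, and a signal under the threshold is no proof that a transcript is missing. A gene with several probe sets is given by its brightest unless another is named. Values are in deposited signal units, in the order array 1, 2 and 3, and means carry the SD over the 3 arrays. Folds and log2 ranges between arrays are taken after each array was scaled to a common median, so they can differ from the ratio of the deposited signals printed beside them.

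The arrays had median signals of 171 to 177, and any 2 arrays had the same value for 6 to 18 probe sets. The defining markers of the labelled tissue were present: all 5 CA1 and excitatory neuron markers that the array measures exceeded the threshold on every array, among them Wfs1 at 2522 ± 66.0. Of 9 neural progenitor and neuroblast markers 3 were, Sox2 at 1208 ± 343, Dcx at 274 ± 40.5 and Tubb3 at 8475 ± 1275, and 3 were under it on every array, Igfbpl1, Eomes at 14.6 ± 11.4 and Prox1 at 28.4 ± 18.7. Of 6 endothelial and pericyte markers 1 was above it on all arrays. Both oligodendrocyte precursor markers that the array measures, all 6 microglial and all 5 astrocyte markers were. Of 5 oligodendrocyte markers 4 were, and of 3 blood markers 1 was. Genes of these lists are also expressed by other cells of the tissue, so the signals of the progenitor list do not show that progenitors or neuroblasts were present. Choroid plexus and ependyma markers had summed signals of 3879, 7580.2 and 2360.1. Ttr gave 1334, 4257 and 94.2 of these sums. Foxj1, Kl, Igf2 and Folr1 were, like Ttr, highest on array 2, and Aqp1 was lowest on it. Gapdh, read by probes at its 3' and 5' ends as a sign of RNA length, had 3' over 5' ratios of 3.99, 1.21 and 3.94. Actb had 2.57, 1.86 and 3.50.

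Of the 88 genes 42, or 47.7%, were above threshold on all 3 arrays, 13 on 1 or 2 arrays and 33 on none. Over all named genes the share above threshold on all arrays was 52.9%, so the count for cell cycle genes lay near that of the array as a whole. The roles differed in their counts. Cyclins and kinases of transcription and of other functions had signals above threshold on all arrays for 6 of 7 and 9 of 10 genes, against 5 of 16 genes of origin licensing and firing, 2 of 9 of the replication fork and nucleotide supply, 2 of 7 CDK inhibitors and 0 of 7 pocket proteins and E2F factors. These lists were drawn up by function and no test between them was made.

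**Figure D1:**
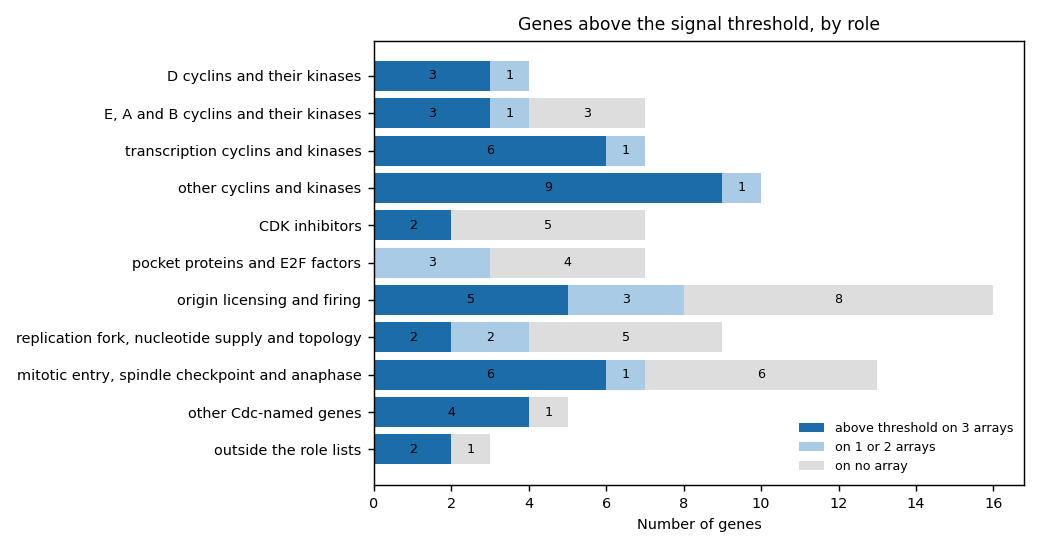
Number of genes (horizontal axis) in each functional list whose brightest probe set was above the signal threshold on all 3 arrays (dark), on 1 or 2 arrays (light) or on none (grey). The transcription list has 6 dark genes of 7, the pocket protein and E2F list has 0 of 7.

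D-type cyclins open the cycle by activating Cdk4 and Cdk6, and 3 of the 4 genes measured here were above threshold on every array. Ccnd1, the cyclin D1 gene, gave 565, 789.8 and 826, and Ccnd3 gave 445, 725 and 511. Cdk4, their kinase partner, gave 1374, 1179.6 and 971. Array 1 was the lowest for both cyclins and the highest for Cdk4, so the 3 genes did not share an order. Ccnd2, the cyclin D2 gene, gave 200.4, 205 and 97.6, above threshold on arrays 1 and 2 and under it on array 3. The second probe set of Ccnd1 behaved like that of Ccnd2, at 220.3, 247 and 48.8, and unlike the brighter Ccnd1 probe set, which was highest on array 3. The second Cdk4 probe set gave 187, 183 and 204, with array 3 highest where the brighter one had it lowest.

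Among the cyclins of S phase and mitosis, 3 of 7 genes were above threshold on all arrays and 3 on none. Ccne1, cyclin E1, which with Cdk2 starts S phase, gave 757, 759 and 775. Ccnb2, a mitotic B-type cyclin, gave 269.7, 281 and 271. After scaling these were the 2 narrowest ranges of all measured probe sets of cell cycle genes, 1.06-fold and 1.04-fold. Without scaling the log2 range of Ccne1 was 0.03 in place of 0.08. Ccna2, the cyclin A of somatic cells, gave 345, 323 and 447. Neither kinase partner was above threshold on all arrays. Cdk1, the mitotic kinase, gave 44.3, 30.4 and 45.1, under it on each array. Cdk2 gave 180.4, 114 and 144, above it on array 1 alone, and its second probe set gave 18 ± 9.02. Ccne2, the second E-type cyclin, gave 42.8 ± 21.8, and Ccna1, the cyclin A known from the germ line, gave 51.0 ± 46.5.

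**Figure D2:**
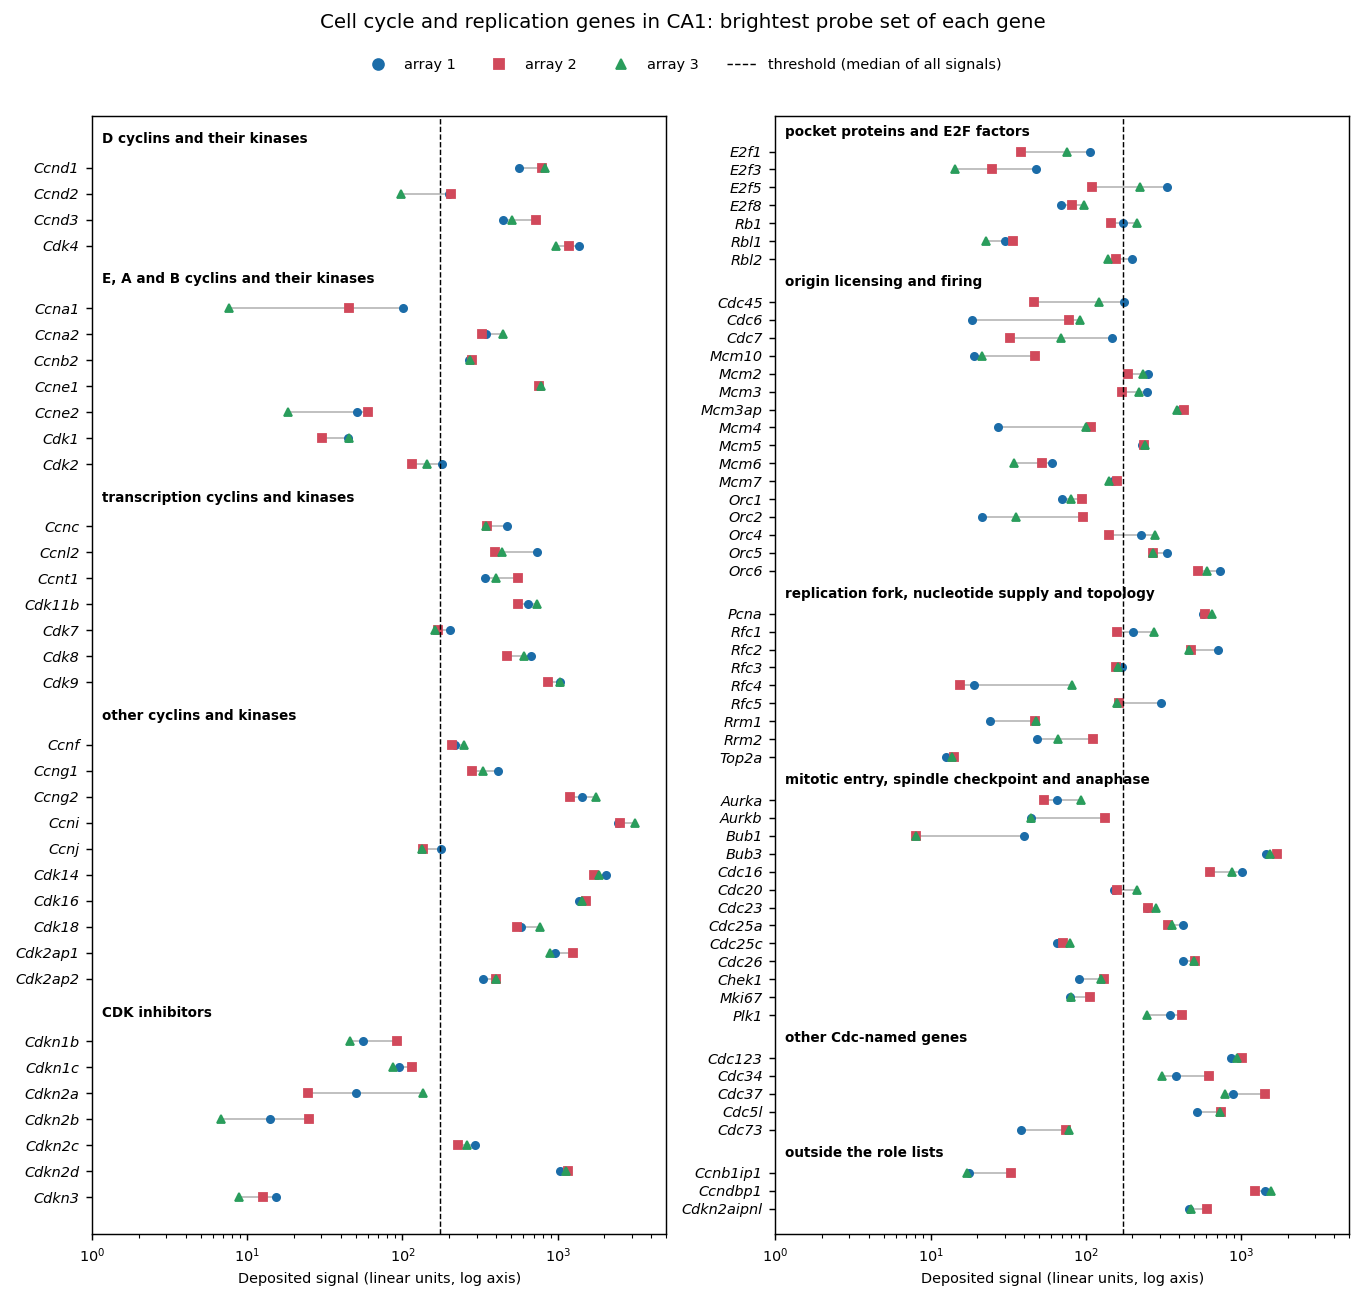
Deposited signal (horizontal log axis) of the brightest probe set of each of the 88 genes on array 1 (blue circles), array 2 (red squares) and array 3 (green triangles), grouped by function; grey lines join the lowest and highest array and the dashed line is the threshold of 174.8. Genes such as Ccne1 and Pcna lie right of the line on every array, and genes such as Top2a, at 13.5 ± 0.850, and Cdk1 lie left of it on every array.

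Cyclins and kinases that act in transcription were above threshold for 6 of 7 genes on all arrays, and Cdk7 was above it on array 1 alone. Cdk9, the kinase of the elongation factor P-TEFb, gave 1035, 870.2 and 1033, and its cyclin partner Ccnt1 gave 343, 554 and 398. Array 2 was the lowest for Cdk9 and the highest for Ccnt1. Cdk8 and Ccnc, kinase and cyclin of the Mediator complex, gave 669, 469.8 and 607, and 469, 348 and 347, both highest on array 1. Ccnl2, a cyclin of pre-mRNA splicing, gave 741, 395 and 436, which set array 1 above both others. Cdk11b, its kinase partner, gave 640.4, 558 and 739.5. Cdk7, the kinase that activates other CDKs and a part of the transcription factor TFIIH, gave 204, 169 and 162.

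Of 10 further cyclins, kinases and CDK-associated proteins 9 were above threshold on all arrays. Cdk14 and Cdk16, kinases of the PFTAIRE and PCTAIRE families that are abundant in brain, gave 1862 ± 166 and 1441 ± 72.0, and Cdk18, also of the PCTAIRE family, gave 633 ± 122. Ccng1, a target of p53, gave 413, 279.5 and 328, and Ccng2, a cyclin linked to cell cycle arrest, gave 1432, 1198 and 1777. Both were lowest on array 2. Ccni, an atypical cyclin, gave 2709 ± 379 on its brightest probe set and 182 ± 64.6 and 11.1 ± 7.94 on the others. The brightest carries the suffix _f_at, which marks probes shared with other sequences, so the level of Ccni is uncertain. Ccnf, the F-box cyclin, gave 226 ± 20.7. The Cdk2-associated genes Cdk2ap1 and Cdk2ap2 gave 1035 ± 188 and 379 ± 41.5. Ccnj, at 177, 135 and 133, was above threshold on array 1 alone. Outside the lists, Ccndbp1, which encodes a protein that binds cyclin D1, gave 1401 ± 165, Cdkn2aipnl gave 516 ± 78.5, and Ccnb1ip1, a gene of meiotic recombination, gave 22.6 ± 8.98.

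CDK inhibitors hold cells out of the cycle, and 2 of 7 genes were above threshold on all arrays while 5 were above it on none. Both that passed are INK4 inhibitors, which block Cdk4 and Cdk6. Cdkn2d, encoding p19, gave 1030.3, 1157 and 1129.7, and Cdkn2c, encoding p18, gave 294, 229 and 259. The range after scaling was 1.13-fold for Cdkn2d and 1.29-fold for Cdkn2c. The other INK4 genes were under threshold, Cdkn2a at 50.4, 24.6 and 135 and Cdkn2b at 15.3 ± 9.22. Cdkn1b, which encodes p27, a broad CDK inhibitor of cells that have stopped dividing, gave 64.5 ± 24.8 and 20.9 ± 1.73 on its 2 probe sets, and Cdkn1c, encoding p57, gave 99.1 ± 14.6. Cdkn3, the gene of a phosphatase that acts on CDKs, gave 12.2 ± 3.23.

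Pocket proteins and E2F factors were the only list with no gene above threshold on all arrays, 3 of 7 genes being above it on 1 or 2. Without array 2 the count was 1, E2f5. Rb1, the retinoblastoma gene, gave 173, 146 and 213, astride the threshold, and Rbl2, encoding p130, the pocket protein of resting cells, gave 200, 157 and 138. Rbl1, encoding p107, gave 29 ± 5.61. E2f5, a factor that works with p130 as a repressor, gave 332, 110.1 and 222. Its 3.02-fold range after scaling was the widest of the 54 measured cell cycle probe sets, with array 2 lowest, and did not pass the test of spread (limma, adjusted p = 0.97). Without array 2 the log2 range of E2f5 was 0.53 in place of 1.60. E2f1, an activator of S phase genes, gave 73.2 ± 33.7, E2f3 29.1 ± 17.2 and E2f8, a repressor, 83.2 ± 14.3.

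Replication starts at origins that the origin recognition complex (ORC) marks, on which Cdc6 loads the MCM helicase and Cdc45 and Cdc7 act at firing. Of 16 such genes 5 were above threshold on all arrays, 3 on 1 or 2 and 8 on none. Mcm5, a helicase subunit, gave 229, 236 and 239.5, a range of 1.08-fold after scaling, and Mcm2 gave 253, 188 and 235. Mcm3 gave 249.8, 171 and 219. The second probe sets of Mcm5 and Mcm3 were under threshold on each array. That of Mcm5 gave 98.7, 143 and 131, and that of Mcm3 gave 67.5, 130 and 97.5, with array 2 highest where the brighter one had it lowest. The other subunits were under threshold on each array, Mcm7 at 150.1 ± 8.65, Mcm4 at 78.3 ± 44.6 and Mcm6 at 48.9 ± 13.1. The 6 subunits form 1 ring in equal numbers, yet their probe sets fell on both sides of the threshold, as signals of different probe sets can. Mcm3ap, whose product binds Mcm3 and also takes part in mRNA export, gave 405, 428 and 389.

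Within the ORC, Orc6 gave 738, 531 and 601 and Orc5 gave 335, 271 and 273, both above threshold on all arrays. Orc4 gave 226, 142 and 278, with array 2 under it. Its range was 2.03-fold after scaling (limma, adjusted p = 0.99), or 1.02 on the log2 scale, which was 0.97, under 2-fold, without scaling and 0.34 without array 2. Orc1, the subunit whose level follows the cell cycle, gave 81.5 ± 12.1, and Orc2 gave 50.8 ± 39.3. Cdc6, Cdc7 and Mcm10, which act when origins are loaded and fired, were under threshold on each array: Cdc6 gave 18.5, 78.5 and 92.2, Cdc7 gave 149, 32.4 and 69.0, and Mcm10 gave 29.2 ± 15.4. Cdc45 reached 176 on array 1, with 46.5 and 122 on arrays 2 and 3. Array 2 was the lowest for 5 of the 7 measured probe sets of this list, Mcm2, Mcm3, Orc4, Orc5 and Orc6, and after scaling for 42.3% of all measured probe sets, while Mcm5 and Mcm3ap had other orders.

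At the fork, Pcna, the sliding clamp of DNA polymerases, gave 572, 585 and 647, and Rfc2, a subunit of the clamp loader, gave 713, 480.2 and 460.4. These were the 2 genes of 9 above threshold on all arrays. Among the other loader subunits, Rfc1 gave 201, 158 and 273, Rfc5 306, 163 and 158, Rfc3 163 ± 7.85 and Rfc4 38.7 ± 37.3. Array 1 stood above both others for Rfc2 and the brighter probe set of Rfc5, which Rfc1 and Pcna did not share. The second probe set of Rfc5 gave 38.3, 66.9 and 65.2, under threshold on each array and with array 1 lowest. The ribonucleotide reductase subunits Rrm1 and Rrm2 gave 39.7 ± 13.5 and 75.6 ± 32.3, and Top2a, the topoisomerase of proliferating cells, gave 12.5, 14.1 and 13.8, all under threshold.

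Of 13 genes of mitotic entry, the spindle checkpoint and anaphase, 6 were above threshold on all arrays and 6 on none. Those above it included parts of the anaphase-promoting complex, a ubiquitin ligase that also acts in neurons. Cdc16 gave 1020.5, 633 and 873, Cdc23 gave 249, 252 and 284, and Cdc26 gave 422, 508 and 498. Cdc20, an activator of that ligase, gave 153, 159 and 214, above threshold on array 3 alone. Bub3, a checkpoint protein, gave 1452, 1717 and 1548. Its checkpoint partner, the kinase Bub1, gave 18.7 ± 18.3 on the brightest of 3 probe sets. Cdc25a, a phosphatase that activates CDKs, gave 425, 341 and 359.7, and Cdc25c gave 71.9 ± 7.07.

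Of the mitotic kinases, Aurka gave 65.3, 53.7 and 93.0 and Aurkb gave 44.4, 132 and 44.6, and Chek1, a kinase of the DNA damage checkpoint, gave 90.6, 131 and 126. Mki67, the gene of the proliferation antigen Ki-67, gave 79.6, 106 and 80.1 on its brighter probe set and 9.27 ± 1.44 on the other. All 5 of these genes, Bub1 included, were thus under threshold on every array. Plk1, the polo-like kinase, gave 351, 419 and 247 and 335, 203 and 296 on 2 of its probe sets, in different orders, and 62.1 ± 39.8 on the third. The 2 brighter ones carry suffixes (_f_at and _g_at) that mark probes shared with other sequences or probe sets, so the level of Plk1 is uncertain. The brightest probe sets of E2f1 and E2f8 (_f_at), Mcm3 and Cdc25c (_s_at) and Mki67 and Cdkn1b (_r_at) also lack the plain suffix _at. The levels of these genes are uncertain too.

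Several genes carry a Cdc name but fall outside the lists above. Cdc37, a co-chaperone that hands kinases to Hsp90, gave 885, 1426 and 785, and Cdc34, a ubiquitin-conjugating enzyme, gave 379, 618 and 311. Cdc5l, a splicing factor, gave 518, 741 and 729, and Cdc123, an assembly factor of translation initiation, gave 940.1 ± 73.6. All 4 were highest on array 2 by deposited signal, unlike most of the licensing genes. After scaling, Cdc5l was highest on array 3. Cdc73, of the transcription complex PAF1, gave 63.5 ± 22.2. The 1.92-fold range of Cdc34 and the 1.75-fold range of Cdc37 did not pass the test of spread (limma, adjusted p = 0.97 for each), and without array 2 their log2 ranges were 0.24 and 0.13, in place of 0.94 and 0.81.

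The spread between arrays was tested on the 54 probe sets of 50 genes whose mean was above threshold. Each was asked whether it varied over the 3 arrays more than others of its level, with limma and Benjamini-Hochberg adjustment over all 6218 such probe sets of the array. Of the 54, 0 passed at an adjusted p of 0.05, and the lowest adjusted p was 0.97. Over the array 0.0161% passed, 1 probe set, that of the choroid plexus gene Ttr. The cell cycle probe sets nearest the threshold were Cdc20, Rb1 and the second of Cdk11b, at means of 175, 177 and 178, among those tested, and Ccnd1's second, Ccnd2 and Rbl2, at 172, 168 and 165, among those left out. At an unadjusted p under 0.05 there were 0 of the 54, and 324 (5.21%) over the array. A range over 2-fold was seen in 3 of 54, E2f5, Orc4 and a dim probe set of Ccni at 111, 198 and 237, or 5.56%, against 12.1% of all. Without scaling it was 2, since Orc4 fell under 2-fold. The median SD of log2 signal was 0.24, against 0.25 over all measured probe sets. Cell cycle genes above threshold thus varied between the arrays about as far as other probe sets, and with 3 arrays the precision is limited. The 10 widest ranges belonged to E2f5, Ccni, Orc4, Cdc34, Rfc5, Ccnl2, Rfc1, Cdc37 and the 2 brighter probe sets of Plk1.

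**Figure D3:**
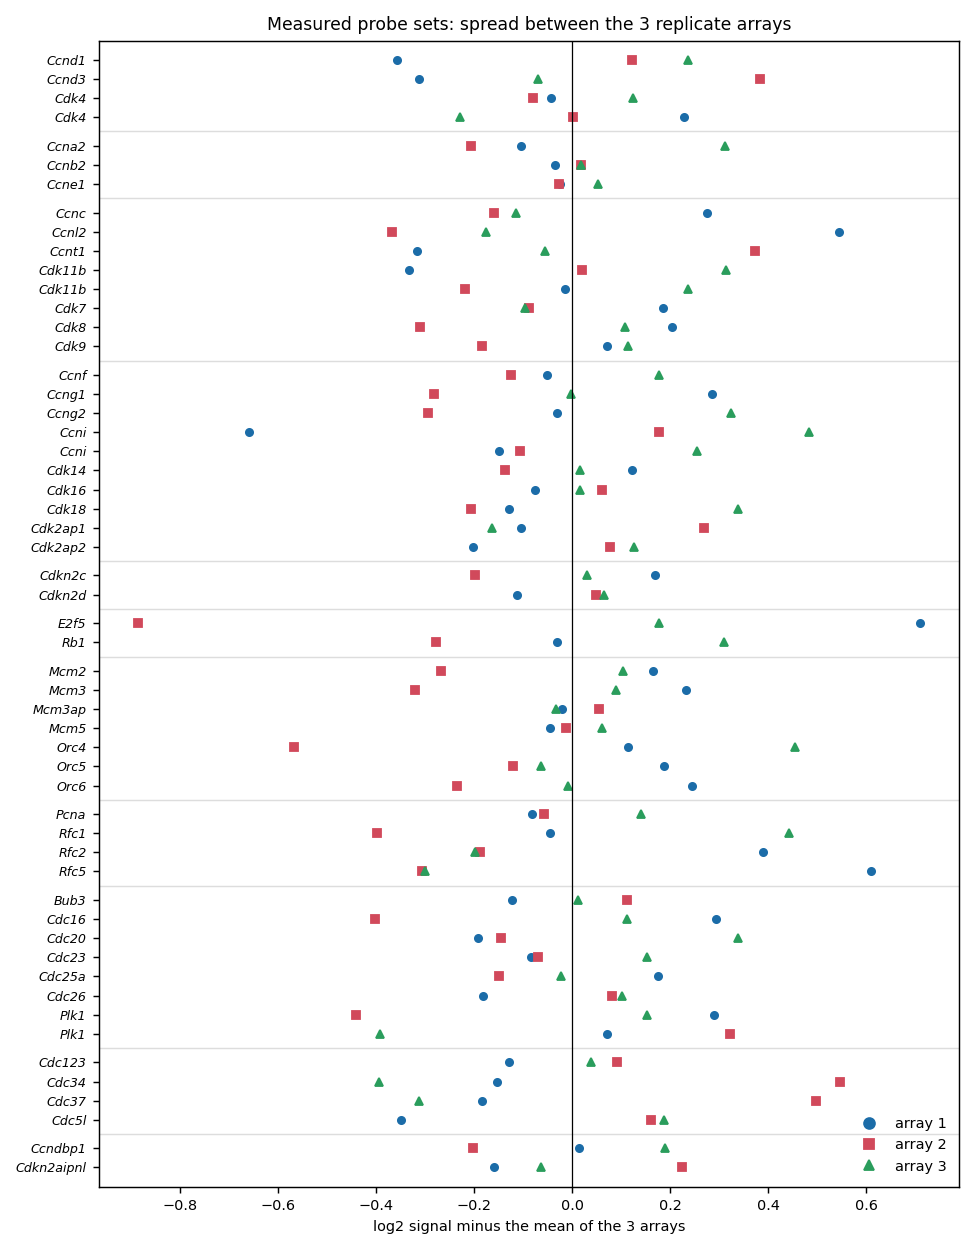
Each row is 1 of the 54 measured probe sets, grouped by function in the order used for the levels; points give its log2 signal, after scaling, minus the mean of the 3 arrays, on array 1 (blue circles), array 2 (red squares) and array 3 (green triangles). E2f5 has the widest spread and Ccnb2 the narrowest. Array 2 lies left of 0 for most of the measured licensing probe sets and right of it for Cdc34 and Cdc37.

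Against the mean of the other arrays, the median log2 shift of the 54 probe sets for array 1 was -0.05, for array 2 -0.17 and for array 3 0.11, where all measured probe sets had 0.01, -0.05 and 0.05. On array 1, 22 of 54 (40.7%) lay above the mean of the other arrays, against 50.7% of all. On array 2 it was 20 (37.0%), against 45.2%, and on array 3 it was 36 (66.7%), against 55.2%. Array 2 was the lowest for 27 of 54 after scaling, or 50%, against 42.3% of all, and for 24 by deposited signal. The shift on array 2 was -0.0012 when no threshold was set and -0.025 with the threshold at the 75th percentile of all values. By list it was -0.87 for pocket proteins and E2F factors (2 probe sets), -0.37 for fork genes (4) and -0.35 for licensing genes (7). For transcription cyclins and kinases (8) it was -0.26, and for other cyclins and kinases (10) -0.17. For mitotic genes (8) it was -0.16 and for CDK inhibitors (2) -0.11. It was -0.04 for E, A and B cyclins (3) and 0.02 for the genes outside the lists (2). For D cyclins (4) it was 0.09 and for the other Cdc-named genes (4) 0.49. By deposited signal, array 2 was the lowest in 1 of the 4 fork probe sets. Array 2 also had the lowest 3' to 5' ratios, 1.21 for Gapdh and 1.86 for Actb, and the highest summed choroid plexus signal, whose part in these shifts was not tested.

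Several probe sets measured the same gene in 26 cases, which shows how far a level depends on the probes. In 8 of the 26 (30.8%) 1 probe set was above threshold on all arrays and another on none, against 35.5% of 2073 such genes over the array. Examples are Bub3, at 1572 ± 134 and 16.6 ± 6.68, Cdc25a, at 375 ± 44.2 and 20.5 ± 10.8, and Orc5, at 293 ± 36.1 and 18.3 ± 22.2. Ccni had the widest gap, from 2709 ± 379 to 11.1 ± 7.94. Of the 26 genes 8 had no probe set above threshold on any array, among them Mki67, Cdkn1b, E2f1, Orc2, Rrm1 and Bub1, and 1, Cdk4, had all of them above it on all arrays. In 4 genes 2 probe sets had a mean above threshold. Both were highest on the same array in 2 of them, Ccni and Cdk11b, and on different arrays in Cdk4 and Plk1.

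**Figure D4:**
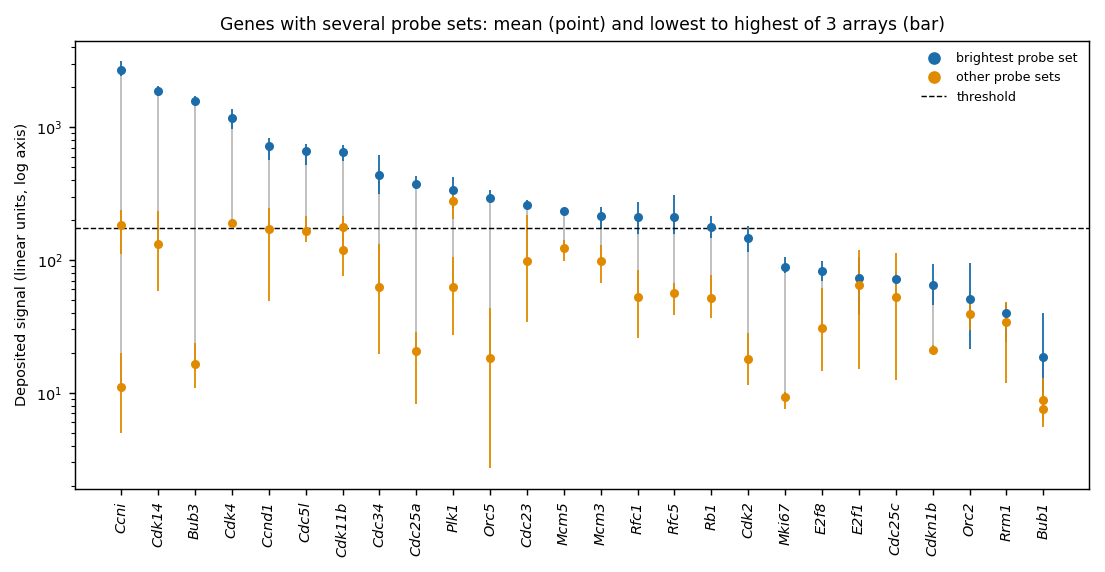
Deposited signal (vertical log axis) of every probe set of the 26 genes with more than 1, with the mean as a point and the lowest to the highest of the 3 arrays as a bar; the brightest probe set is blue, the others orange and the dashed line is the threshold of 174.8. For Bub3, Cdc25a and Orc5 the probe sets lie on opposite sides of the line.

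E2F factors bind short sites in the promoters of many replication genes, so the promoters of the cell cycle genes were read for such letters. RefSeq promoter windows (build GRCm38.p6) were found for 76 of the 88 genes. The 250 bases before the start were searched on both strands for TTTCCCGC, TTTGGCGC, TTTCGCGC and TTTGCCGC, forms of the E2F site. Of the 76 genes 12 (15.8%) held at least 1, among them 5 of 15 licensing genes, against 3.63% of 6576 named genes with a window. Of all 32851 windows 1.86% held a match, a share of single windows and not of genes. There were 15 matches in 13 stretches, since in Mcm5 and in 1 stretch of Mcm6 a match on each strand overlapped the other. Of these matches 0 overlapped a CCAAT box or a TTTGAA element, the other motifs searched. The letters of the E2F forms cannot overlap TTTGAA and can share at most 1 end base with CCAAT. This 0 was thus largely fixed by the letters and says nothing about how the sites are arranged. The windows of 7 genes follow, 5 of licensing and 2 of other roles, each running 5′ to 3′ along the gene, with the matched stretch in capitals (a match on the other strand reads as its reverse complement).

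Mcm5, chr8:75109330-75109393, plus strand: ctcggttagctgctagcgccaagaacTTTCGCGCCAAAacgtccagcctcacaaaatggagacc
Mcm6, chr1:128359778-128359841, minus strand: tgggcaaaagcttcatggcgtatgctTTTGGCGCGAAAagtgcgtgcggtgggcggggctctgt
Mcm6, chr1:128359719-128359778, minus strand: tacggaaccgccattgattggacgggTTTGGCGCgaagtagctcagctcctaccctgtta
Mcm7, chr5:138172015-138172074, minus strand: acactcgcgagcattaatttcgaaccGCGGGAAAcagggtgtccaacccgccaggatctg
Cdc6, chr11:98907987-98908046, plus strand: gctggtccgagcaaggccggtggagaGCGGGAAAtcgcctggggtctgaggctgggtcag
Orc1, chr4:108579401-108579453, plus strand: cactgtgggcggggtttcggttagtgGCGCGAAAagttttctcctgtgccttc
Cdk1, chr10:69353010-69353069, minus strand: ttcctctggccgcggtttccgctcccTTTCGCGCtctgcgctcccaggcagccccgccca
Cdc25a, chr9:109875486-109875545, plus strand: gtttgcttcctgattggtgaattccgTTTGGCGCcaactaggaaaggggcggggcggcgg

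Of the 12 genes with a match, 2 were above threshold on all arrays, Mcm5 and Cdc25a, and 9 on none: Mcm6, with 2 matched stretches, Mcm7, Cdc6, Orc1, Cdk1, Rfc3, Rbl1, E2f3 and Cdkn2a. Cdk2 was above it on array 1. Of the 64 cell cycle genes without a match 36 were above threshold on all arrays. Over all named genes the shares were 61.9% of 239 genes with a match and 53.4% of 6337 without, and no test between these was made. A match describes letters in a window and not a bound site. With each gene taken as the mean of its probe sets 1 of the 12 was above threshold, and with the threshold at the 25th percentile of all values 6 were. The shares of all named genes at these settings are not given here, so nothing is read from these moves.

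The CCAAT box, written CCAAT on either strand, was in the window of 47 of 76 genes (61.8%), against 40% of named genes, and in 11 of 15 licensing and 7 of 10 mitotic genes. TTTGAA, the cell cycle homology element of mitotic genes, was in 17 (22.4%), against 13.8%. Of the genes with a CCAAT box 22 of 47 were above threshold on all arrays, and 16 of 29 without, where all named genes had 53.8% and 53.7%. Of those with TTTGAA it was 6 of 17, and 32 of 59 without, where all named genes had 47% and 54.8%. These shares were not tested. Cdk1, E2f3 and other genes held more than 1 of the 3 motifs.

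Genes of the same pathway that the name rule does not reach were counted against the threshold too. Of the 63 that the array measures, 18 (28.6%) passed it on all arrays. Among enzymes of replication and S phase it was 3 of 23, with 12 under threshold on every array: Rpa1, a single-strand binding subunit, at 836 ± 62.2, Dnmt1, the maintenance DNA methyltransferase, at 842 ± 216 and Ung, the uracil glycosylase of base repair, at 698 ± 143. The polymerase subunit Pold1 gave 168, 328 and 205, and Slbp, which binds histone mRNA, gave 196, 130.4 and 209. Among genes of mitosis and cytokinesis it was 5 of 25, with 14 under threshold on every array. Foxm1, a transcription factor of mitotic genes, gave 212, 199 and 486, highest on array 3. Mybl2, another transcription factor of dividing cells, gave 168, 319 and 161, highest on array 2. The probe sets of Foxm1 (_g_at) and Mybl2 (_f_at) lack the plain suffix, so these levels are uncertain. Incenp, a partner of Aurora B, gave 143, 240.0 and 146.

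Regulators of cyclins and CDKs outside the rule were above threshold for 10 of 15 genes. Skp1, a part of the SCF ubiquitin ligase that degrades cyclins and CDK inhibitors, gave 2925, 2744 and 4882, highest on array 3. Gadd45b, a stress-response gene, gave 396, 207 and 391, and Btg1, an antiproliferative gene, gave 328, 182 and 297. Both were lowest on array 2. Of the measured genes of the 3 lists 0 passed the test of spread in limma, and 1, Foxm1, had a range over 2-fold. In a tissue sample, fewer cells of a type and less RNA per cell cannot be told apart, so none of these levels gives a number of dividing cells.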

How the data were processed

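The signal intensity of 12488 probe sets on each of 3 Affymetrix-type arrays was used as the authors deposited it, on a linear scale. No source used here gives the software and scaling behind the deposited intensity values. Symbols were updated through Entrez identifiers, and 66 control probe sets were left out. For log2 values, each array was scaled to a common median (factors 0.991, 0.987 and 1.02) and values under 47.5, the 25th percentile, were set to it. The test of spread used limma 3.58.1 (R 4.3.3): each probe set's variance over the arrays against a robustly fitted prior (6.53 prior degrees of freedom), upper tail, with Benjamini-Hochberg adjustment, called at 0.05. The script was tested on simulated data. With 1 group no comparison between conditions was possible. The p-values measure only the spread between these arrays, and 3 arrays limit the precision. The genes named are all those of the division and replication lists, the measured ones of the other lists, the widest and narrowest ranges, and the 3 widest of each pathway list; marker genes, probe sets near the threshold and examples of unequal probe sets were named after their values were seen. The genes and lists were chosen with earlier results of these data known. Alternatives changed the scaling, floor, threshold, variance prior, probe sets, symbols and arrays used.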

Additional observations from a re-analysis of the deposited data

How the results depend on the processing

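The count of cell cycle genes above threshold on all arrays was 42. It became 64 with the threshold at the 25th percentile of all values and 15 at the 75th. The shares of all named genes at those thresholds are not given here, so this move is not read as a result about cell cycle genes. The count of probe sets over 2-fold apart, 3, became 19 of 94 at the 25th percentile (20.2%, against 25.2% of all) and 0 of 21 at the 75th (against 6.59%). With no threshold it was 19 of 118 (16.1%, against 19.7%). It was 1 of 51 without array 1 (1.96%, against 7.81%) and 0 of 54 without array 2 (against 3.46%). Without array 3 it was 1 of 54 (1.85%, against 6.65%). The median log2 shift on array 2, -0.17, became -0.025 at the 75th percentile and -0.0012 with no threshold. The other alternatives moved none of these beyond the limits set, and 0 cell cycle probe sets passed the limma variance test under any alternative, with lowest adjusted p-values of 0.42 to 0.99. At an unadjusted p under 0.05 there were 10 of 118 with no threshold and 2 of 94 at the 25th percentile. Without array 3 there were 2 of 54, and 44 probe sets passed after adjustment over the whole array, none of them a cell cycle one. The shares over all probe sets at these settings are not given here, so nothing about cell cycle genes is read from these counts. Of the values for single lists and genes, 105 counts by list stayed and 16 moved, and 160 log2 ranges stayed and 16 moved. The cause was not tested. No paired analysis was possible because the samples form 1 group. The files used give no background or detection call per probe set, which limits what can be said of dim genes.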
